A study of Mus musculus with 10 samples.

Results

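Border macrophage marker genes were followed across the 10 arrays of a study of microglia, the resident macrophages of the brain tissue. The 8 genes Cbr2, F13a1, Cd209f, Mrc1, Lyve1, Cd163, Pf4 and Folr2 were taken as listed, out of 19749 genes that the array names. Each was read from its single probe that names no other gene. All 8 passed the filter on dim genes (a level above the table median of 5.27 on the log2 scale on at least 2 arrays), which left 10792 genes for the tests. Microglia had been sorted by flow cytometry from male C57BL/6 (WT) mice and from Trem2-/- mice. The age given for the mice is 8 to 12 weeks. It cannot be the age at the sort of mice fed for 12 weeks with 2 weeks of recovery. Trem2 is a lipid-sensing receptor on the microglial surface, and cuprizone, a copper chelator given in food, leads to the death of oligodendrocytes and the loss of myelin. Each genotype gave 5 libraries. These were a control without cuprizone, 4 weeks and 12 weeks on a diet with 0.2% cuprizone, and each of these feeding times with 2 further weeks on normal food, called recovery below. The sources used here do not state the sort markers, the origin of the Trem2 allele or how many animals went into a library. The p-values below therefore measure only the spread between these libraries, which may be technical. The study asked how Trem2 shapes the microglial response to demyelination and to recovery from it.

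Border macrophages sit at the edges of the brain, in the meninges, the perivascular spaces and the choroid plexus. They share CX3CR1 and many other surface proteins with microglia, and they differ from them by scavenger and lectin receptors that bind glycans, haemoglobin complexes and folate. Adult microglia express most of these receptors weakly. In bulk RNA of sorted cells, more cells of a type and more RNA per cell cannot be told apart.

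Promoter sequence was looked up because 7 of the 8 genes had their highest levels in the same libraries (below). The RefSeq table (build GRCm38.p6) gave 9 windows for 7 of the 8 genes, each covering the 250 bases before an annotated start; Lyve1 had no entry. The windows were searched on both strands for 4 motifs. The core site of PU.1, the lineage factor of macrophages and microglia, is GAGGAAG. It was present in 4 of the 9 windows, and 10.6% of the 32851 windows in the table held it. The 4 windows are shown with the match in capitals, as GAGGAAG or as its reverse complement CTTCCTC. They lie at chr11:120732022-120732271 (minus strand, Cbr2), chr13:37050245-37050494 (minus strand, F13a1), chr2:14229164-14229413 (plus strand, Mrc1) and chr5:90772185-90772434 (plus strand, Pf4).
Cbr2: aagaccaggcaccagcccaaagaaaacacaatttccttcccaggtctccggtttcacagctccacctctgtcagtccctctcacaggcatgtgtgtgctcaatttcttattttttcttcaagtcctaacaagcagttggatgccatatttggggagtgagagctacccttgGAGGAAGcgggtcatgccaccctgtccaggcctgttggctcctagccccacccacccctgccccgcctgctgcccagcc
F13a1: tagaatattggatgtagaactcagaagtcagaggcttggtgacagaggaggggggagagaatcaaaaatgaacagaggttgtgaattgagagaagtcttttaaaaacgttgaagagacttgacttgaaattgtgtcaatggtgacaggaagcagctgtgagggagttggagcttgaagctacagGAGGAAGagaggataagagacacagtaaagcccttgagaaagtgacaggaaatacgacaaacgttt
Mrc1: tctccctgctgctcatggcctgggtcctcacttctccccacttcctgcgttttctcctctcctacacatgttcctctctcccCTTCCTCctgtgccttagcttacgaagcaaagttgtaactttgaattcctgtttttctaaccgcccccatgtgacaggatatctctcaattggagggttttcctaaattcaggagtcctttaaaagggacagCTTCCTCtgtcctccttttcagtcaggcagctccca
Pf4: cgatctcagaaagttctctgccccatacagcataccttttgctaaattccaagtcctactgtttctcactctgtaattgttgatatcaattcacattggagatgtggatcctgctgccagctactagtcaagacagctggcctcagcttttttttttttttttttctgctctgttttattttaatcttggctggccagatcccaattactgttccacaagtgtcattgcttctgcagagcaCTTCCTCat
The Cbr2 match began 79 bases before the start, the F13a1 match 66 bases, the 2 Mrc1 matches 168 and 36 bases, and the Pf4 match 9 bases. The AP-1 site TGANTCA was present in 2 windows, of Cd209f and Folr2, against 6.75% of all windows, and no window of the 8 genes held both motifs. The MAF half-site TGCTGAC (3.81% of all windows) and the interferon-stimulated element (2.98%) had 0 matches. A match describes the letters of the window and no binding.

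The deposited values were linear intensities, and array medians lay between 37.6 and 39.3. Trem2 itself matched the genotype labels, at 10.67 to 10.81 on the log2 scale in WT libraries and 7.26 to 7.85 in Trem2-/- libraries. The microglial genes P2ry12 (10.77 to 11.46), Tmem119 (10.78 to 11.55) and Cx3cr1 (12.14 to 12.53) were bright in all 10 libraries, as the cell type label states. By the submitters' sample numbers, the controls and the libraries titled 4 weeks make up a first run of 6, and those titled 12 weeks make up a second run of 4 that has no control. Feeding time and run cannot be told apart. The Trem2-/- library titled 12 weeks on cuprizone also carries a time label of 4 weeks, and it was treated as titled.

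All levels that follow are log2 intensities of 1 library each, and levels of different genes are not compared because each gene has its own probe. Mrc1 encodes the mannose receptor, an endocytic lectin of tissue macrophages. In WT, Mrc1 measured 8.30 in the control, 9.57 at 4 weeks, 9.49 at 4 weeks with recovery, 8.35 at 12 weeks and 8.29 at 12 weeks with recovery. In Trem2-/-, Mrc1 measured 8.03, 9.57, 9.64, 8.67 and 8.35 in the same order. The 4 libraries titled 4 weeks, recovery included, were the highest in both genotypes. In WT the 12-week libraries lay near the control. In Trem2-/- they exceeded the control by 0.64 at 12 weeks and 0.32 at 12 weeks with recovery.

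Cd163 encodes the scavenger receptor for haemoglobin bound to haptoglobin. In WT, Cd163 measured 5.77 in the control, 7.34 at 4 weeks, 7.41 at 4 weeks with recovery, 5.25 at 12 weeks and 5.45 at 12 weeks with recovery. In Trem2-/-, Cd163 measured 5.31, 7.10, 7.30, 5.85 and 5.98. Outside the 4-week libraries this gene was close to the table median, where signal is near background, so its differences from those libraries may be understated. Cd209f belongs to the mouse family of DC-SIGN-like lectins. In WT, Cd209f measured 6.14, 7.33, 7.27, 5.39 and 5.48 in the order control, 4 weeks, 4 weeks with recovery, 12 weeks and 12 weeks with recovery. In Trem2-/-, Cd209f measured 5.37, 7.35, 7.16, 6.12 and 6.25. For both genes the WT control was above the WT 12-week libraries, while the Trem2-/- control was below the Trem2-/- 12-week libraries.

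Lyve1 encodes a hyaluronan receptor of lymphatic endothelium and of perivascular macrophages. In WT, Lyve1 measured 6.76 in the control, 8.53 at 4 weeks, 8.41 at 4 weeks with recovery, 6.84 at 12 weeks and 6.78 at 12 weeks with recovery. In Trem2-/-, Lyve1 measured 6.35, 7.69, 7.89, 6.94 and 6.27. It was the gene whose 2 WT libraries at 4 weeks lay farthest above their Trem2-/- counterparts. Folr2 encodes the folate receptor beta of tissue macrophages. In WT, Folr2 measured 5.55, 5.79, 5.89, 5.91 and 5.83 in the order used above. In Trem2-/-, Folr2 measured 5.37, 6.19, 5.89, 5.67 and 5.41. Folr2 spanned only 0.81 over the 10 libraries, its 4-week and other libraries overlapped, and the WT 12-week library exceeded the WT 4-week library.

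Pf4 encodes platelet factor 4, a secreted chemokine made by platelets and by border macrophages. In WT, Pf4 measured 9.83 in the control, 11.07 at 4 weeks, 10.77 at 4 weeks with recovery, 9.95 at 12 weeks and 9.63 at 12 weeks with recovery. In Trem2-/-, Pf4 measured 9.29, 10.98, 10.85, 9.95 and 9.94. Again the 4-week libraries stood above all others. The 8 genes include a pair of enzymes. Cbr2 encodes a carbonyl reductase. In WT, Cbr2 measured 7.03 in the control, 8.18 at 4 weeks, 8.01 at 4 weeks with recovery, 6.93 at 12 weeks and 7.0 at 12 weeks with recovery. In Trem2-/-, Cbr2 measured 6.22, 7.99, 7.85, 7.02 and 7.25, so that the control was the lowest library. F13a1 encodes the A subunit of the transglutaminase factor XIII, which cross-links fibrin. In WT, F13a1 measured 6.89 in the control, 8.04 at 4 weeks, 7.98 at 4 weeks with recovery, 6.15 at 12 weeks and 6.76 at 12 weeks with recovery. In Trem2-/-, F13a1 measured 6.19, 7.93, 8.04, 7.0 and 6.96.

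For 7 of the 8 genes, Folr2 being the exception, all 4 libraries titled 4 weeks exceeded all 6 other libraries. Of the 10792 genes tested, 308 (2.85%) had this order. The gap between the lowest 4-week library and the highest other library ran from 0.60 at Cbr2 to 1.12 at Cd163. A gap over 0.5 was found in 13 of the 10792 genes tested, and 7 of these were the border macrophage genes named above. No test was made on this order, which was noticed in the data.

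**Figure D1:**
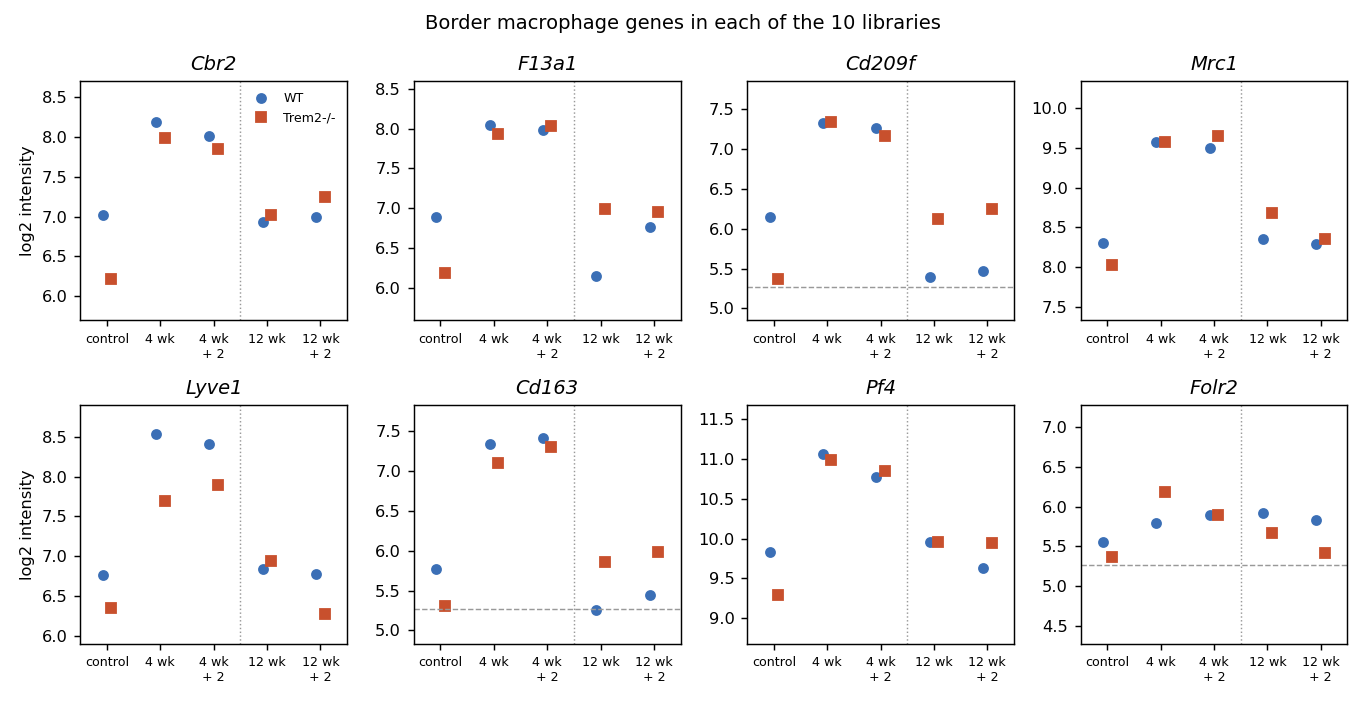
Log2 intensity (y axis) of the 8 border macrophage genes in each of the 10 libraries (x axis: control, 4 weeks of cuprizone, 4 weeks and 2 weeks of recovery, 12 weeks, 12 weeks and 2 weeks of recovery), with WT as circles and Trem2-/- as squares. The dotted line separates the second run of sample numbers and the dashed line, where in range, marks the table median of 5.27. Each point is 1 library and every panel spans 3 log2 units; in every panel but Folr2 the 4 libraries titled 4 weeks lie above the rest.

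Within the first run, the 4-week libraries were compared with the control of the same genotype, each difference resting on 1 library a side. In WT all 8 genes were higher after 4 weeks on cuprizone, by 0.24 (Folr2) to 1.77 (Lyve1) with a median of 1.21, which is 2.31-fold. All 8 were also higher after 4 weeks with recovery, with a median of 1.11. In Trem2-/- all 8 were higher at 4 weeks, by 0.81 (Folr2) to 1.98 (Cd209f) with a median of 1.71, or 3.28-fold. After 4 weeks with recovery the Trem2-/- median was 1.62, and the highest value was 1.99 at Cd163. Over all genes tested the 4 medians lay between 0.02 and 0.03, and 0.5% to 2.06% of genes differed upward by more than 1. At 12 weeks in WT, 4 of the 8 genes were higher and 4 lower than the control, with a median of -0.02, and after recovery the median was -0.08. In Trem2-/- all 8 were higher at 12 weeks, with a median of 0.65, and 7 of 8 after recovery, with a median of 0.66. These 12-week differences set libraries of the second run against a control of the first. A genotype difference in them was not tested on its own, because the interaction below joins the 4-week and 12-week libraries.

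A fit of the first run alone, with genotype as a block, gave the comparison of the 4-week libraries with the controls over both genotypes. It was chosen after the data had been seen. Each side holds 1 library of each genotype, so the residual spread is how far the genotypes differ in response, with no replicates of a condition. On cuprizone, 7 of the 8 genes were higher (limma, adjusted p from 0.0219 to 0.0464), against 0.259% of all genes tested. Cd163 rose by 1.68 ± 0.14 (log2 difference ± SE, 2 libraries against 2), Cd209f by 1.58 ± 0.20, Lyve1 by 1.56 ± 0.15 and Mrc1 by 1.41 ± 0.15. Pf4 rose by 1.47 ± 0.17, Cbr2 by 1.46 ± 0.18 and F13a1 by 1.45 ± 0.19. The Folr2 difference was 0.53 ± 0.17, with an adjusted p of 0.391. The median of the 8 genes was 1.46 and that of all genes tested 0.02. The median was 1.21 without the Trem2-/- control and 1.75 without the WT control, and the count called changed with the library left out. In recovery after 4 weeks, 3 of the 8 genes were higher, against 0.0649% of all genes tested. Cd163 was higher by 1.82 ± 0.14, Lyve1 by 1.60 ± 0.15 and Mrc1 by 1.40 ± 0.15, with adjusted p of 0.0159, 0.0297 and 0.0478. Pf4, Cbr2, Cd209f and F13a1 had differences of 1.25 to 1.47 at adjusted p of 0.0845 to 0.0891, and Folr2 had 0.43 at 0.722. The count called in recovery also changed with the library left out.

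The fit of the 6 groups over both runs joined the 4-week and 12-week library of a group as replicates. For 7 of the 8 genes the pair differed widely, and the SE of cuprizone minus control was 0.63 to 1.04, against 0.30 at Folr2. In WT, cuprizone against control called 0 of the 8 genes (limma; 0 also at an unadjusted p under 0.05), against 0.148% of all genes tested. The 8 differences were all above 0, from 0.21 at F13a1 to 0.92 at Lyve1, with a median of 0.53. Without the WT 4-week library the median was -0.02, and Cbr2, F13a1, Cd209f and Cd163 were below 0. In Trem2-/- the test also called 0 of the 8 (0 at an unadjusted p under 0.05). Over all genes it called 0%, with 100 genes at an unadjusted p under 0.05. The 8 differences lay between 0.56 at Folr2 and 1.37 at Cd209f, with a median of 1.17. Without the Trem2-/- 4-week library the median was 0.65, and without the Trem2-/- 12-week library 1.71.

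Entering the titled duration as a block, with the controls beside the 4-week libraries, changed these counts. No control was titled 12 weeks, so this fit assumes 1 shared difference between 12-week and 4-week libraries in all fed groups. It takes that difference out, and its cuprizone differences therefore stand at the level of the 4-week libraries. In WT, 3 of the 8 genes were then higher, against 0.945% of all genes tested. Mrc1 rose by 1.24 ± 0.20, Lyve1 by 1.63 ± 0.29 and Pf4 by 1.21 ± 0.19, with adjusted p of 0.0237, 0.0354 and 0.0193, and the median of the 8 was 1.11. In Trem2-/-, 6 of the 8 were higher, all but Lyve1 and Folr2, against 0.12% of all genes tested. Their differences ran from 1.67 ± 0.20 (Mrc1) to 2.10 ± 0.31 (Cd209f) at adjusted p of 0.0332 to 0.0494, and Lyve1 had 1.68 ± 0.29 at 0.133. With single libraries left out, the WT median was 0.88 without the WT 4-week cuprizone library and 1.21 without the WT 12-week cuprizone library. The value of 0.88 is that of the WT 12-week library after the block was taken out. Without the block, that library had a median of -0.02 against the WT control. The Trem2-/- median was 2.04 without the Trem2-/- 4-week cuprizone library and 1.71 without the Trem2-/- 12-week cuprizone library. The calls rested on single libraries, for the 8 genes and for all genes tested.

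The libraries titled 12 weeks were compared with those titled 4 weeks over 8 arrays, with genotype and diet group as a block. Of the 8 genes, 7 were lower at 12 weeks (limma), against 12.1% of all genes tested. Cd163 fell by 1.65 ± 0.16 (4 libraries against 4, adjusted p = 0.000349), Cd209f by 1.47 ± 0.17, Lyve1 by 1.42 ± 0.16 and Mrc1 by 1.15 ± 0.11. Pf4 fell by 1.05 ± 0.11, F13a1 by 1.28 ± 0.16 and Cbr2 by 0.96 ± 0.13, the last with an adjusted p of 0.0015. Folr2 had -0.24 ± 0.13 and an adjusted p of 0.237. The median of the 8 was -1.22 and that of all genes tested -0.04. With each library left out in turn the count stayed at 7. It was 5 when the library with conflicting labels was put at 4 weeks, against 1.12% of all genes tested; Cbr2 (adjusted p = 0.0693) and Pf4 (0.0581) were no longer called. Because every 12-week library belongs to the second run, this difference cannot be told apart from one between runs. The age of the mice at the sort may also differ between the feeding times, and its part was not tested.

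Return to normal food was compared with cuprizone within each genotype. In WT, 0 of the 8 genes were called (limma; 0 at an unadjusted p under 0.05), against 0% of all genes tested, of which 295 had an unadjusted p under 0.05. The differences lay between -0.31 ± 0.54 at Pf4 and 0.27 ± 0.68 at F13a1. With the titled duration as a block these were -0.31 ± 0.15 and 0.27 ± 0.22, and all 8 intervals held 0. In Trem2-/-, 0 of the 8 were called (0 at an unadjusted p under 0.05), against 0% of all genes tested and 64 at an unadjusted p under 0.05. Folr2 had the lowest difference, -0.28 ± 0.24, and Cd163 the highest, 0.16 ± 0.85. With the duration block their SEs were 0.19 and 0.22, and again all 8 intervals held 0. By library, recovery minus cuprizone at 4 weeks ran from -0.30 (Pf4) to 0.10 (Folr2) in WT and from -0.29 (Folr2) to 0.20 (Cd163) in Trem2-/-, 1 library a side. At 12 weeks, also 1 library a side, it ran from -0.32 (Pf4) to 0.61 (F13a1) in WT and from -0.67 (Lyve1) to 0.23 (Cbr2) in Trem2-/-. With the duration as a block and the library of conflicting labels put at 4 weeks, the Trem2-/- median of -0.05 became 0.55, and 0 of 8 genes were called.

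The genotypes were compared within each of the 5 conditions, with the condition as a block. None of the 8 genes was called (0 of 8, limma; 1 at an unadjusted p under 0.05), against 0.259% of all genes tested. Lyve1 had -0.43 ± 0.13 (Trem2-/- minus WT, 5 libraries against 5), an unadjusted p of 0.00676 and an adjusted p of 0.246. It was lower in Trem2-/- in 4 of 5 conditions, by 0.41 in the controls, 0.84 at 4 weeks, 0.52 at 4 weeks with recovery and 0.51 at 12 weeks with recovery, and higher by 0.11 at 12 weeks. The adjusted p for Lyve1 was 0.155 to 0.581 under the alternatives that kept the condition as a block and higher without it. The other 7 genes had differences between -0.17 (Cbr2) and 0.13 (Cd209f), with 95% intervals that reached from -0.48 to 0.58 and all held 0. On cuprizone alone the genotype difference called 0 of the 8 (0 at an unadjusted p under 0.05), against 0.334% of all genes tested. Its values lay between -0.36 and 0.38 with a median of 0.12. With the titled duration as a block the values were the same, and all 8 intervals held 0. With the duration as a block and the conflicting library put at 4 weeks, the median was -0.50 and 0 were called.

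Whether the cuprizone response differs with Trem2 was tested by the interaction in the 6-group fit. It called 0 of the 8 genes (0 at an unadjusted p under 0.05), against 0.00927% of all genes tested. The values (Trem2-/- minus WT response) ran from 0.05 ± 1.29 at Lyve1 to 1.16 ± 1.33 at Cd209f, with a median of 0.56, and all 8 intervals held 0. With the duration block, Cbr2, F13a1 and Cd209f had unadjusted p of 0.0376, 0.0201 and 0.02 and adjusted p of 0.999, 0.885 and 0.885. The control libraries enter this difference directly, with 1 library each and no test of their own. All 8 genes were lower in the Trem2-/- control than in the WT control, by 0.18 (Folr2) to 0.81 (Cbr2), and the median difference was -0.49. At 4 weeks the same median was -0.10, and at 4 weeks with recovery -0.06. At 12 weeks it was 0.22, with F13a1 higher in Trem2-/- by 0.84, Cd209f by 0.73 and Cd163 by 0.60, and at 12 weeks with recovery it was 0.22. With the duration as a block and the conflicting library put at 4 weeks, the median interaction was 0.08, with 4 genes above 0 and 4 below.

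**Figure D2:**
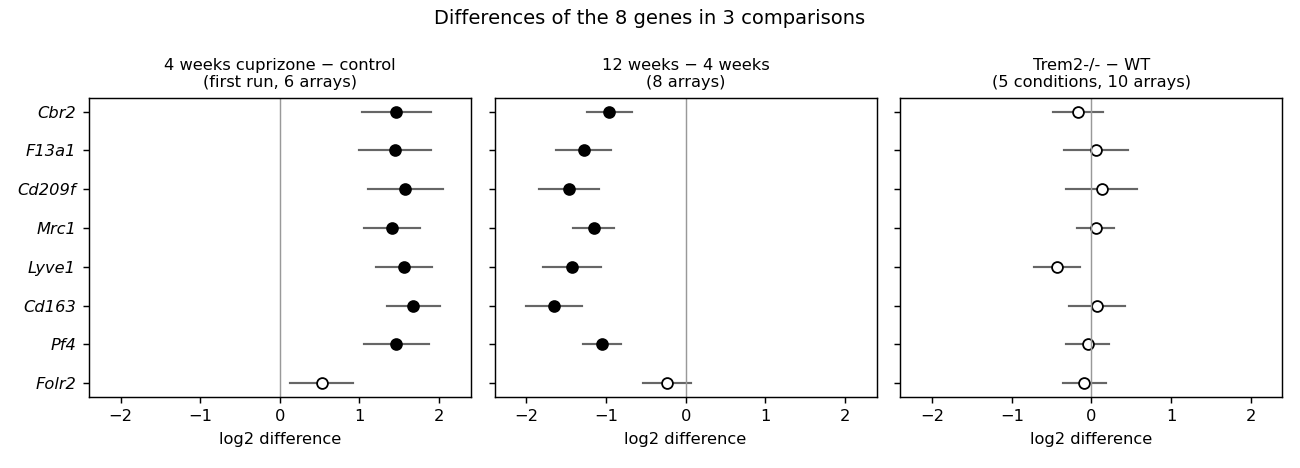
Log2 differences of the 8 genes (points) with 95% intervals from limma (lines) for 4 weeks of cuprizone against control in the first run (left, 6 arrays), 12 against 4 weeks (middle, 8 arrays) and Trem2-/- against WT over 5 conditions (right, 10 arrays). Filled points have an adjusted p under 0.05 over all genes tested: 7 of 8 on the left, 7 of 8 in the middle and none on the right, where the Lyve1 difference of -0.43 lies farthest from 0.

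A further 28 genes listed as border macrophage markers were read for comparison, of which 27 were on the array and 22 were tested. At 12 against 4 weeks, 21 of the 22 were lower and 15 were called lower, against 12.1% of all genes tested, with a median of -0.69. The strongest was Ms4a4a, a tetraspan membrane protein, at -1.70 ± 0.14. The others called include the lectins Mgl2 (-1.46 ± 0.13) and Clec10a (-1.34 ± 0.18), the scavenger receptor Stab1 (-1.12 ± 0.11) and the endocytic adaptor Dab2 (-1.08 ± 0.11). The remaining 10 were Blvrb, Siglec1, Clec4n, Ccl24, Cd209a, Cd36, Hpgd, Lilra5, Igfbp4 and Slc40a1, at -1.05 ± 0.13 (Blvrb, a biliverdin reductase) to -0.35 ± 0.10 (Slc40a1, the iron exporter). Some genes called were bright in all 10 libraries, Hpgd at 10.32 to 11.46 and Stab1 at 8.10 to 9.47. Which cells their signal came from was not tested. In the first run on cuprizone, 19 of the 22 were higher and 5 were called (0.259% of all genes tested), with a median of 0.54, beside 1.46 for the 8 genes. The 5 were Ms4a4a (2.13 ± 0.16), Ms4a7 (1.94 ± 0.25), the lipid receptor Cd36 (1.80 ± 0.17), the lectin Clec4n (1.65 ± 0.21) and Dab2 (1.27 ± 0.13). In recovery after 4 weeks 2 were called, Ms4a4a and Dab2 (0.0649% of all genes tested). In the 6-group fit, WT cuprizone called 1 of the 22, Ms4a7 (2.17 ± 0.30, adjusted p = 0.0485, against 0.148% of all genes tested). Trem2-/- cuprizone called 0, with 3 at an unadjusted p under 0.05, against 0% and 100 genes. The next largest WT differences were those of the scavenger lectin Colec12 (1.76 ± 0.33, adjusted p = 0.167) and Ms4a4a (1.43 ± 1.06). In the same fit the largest Trem2-/- differences were those of Ms4a7 (1.36 ± 0.30), Cd36 (1.26 ± 0.53) and Ms4a4a (1.24 ± 1.06), none of them called. With the duration block the WT count was 6 (Ms4a7, Ms4a4a, Colec12, Cd36, Clec4n and Dab2) and the Trem2-/- count 4 (Ms4a4a, Cd36, Ccl24 and Clec4n), against 0.945% and 0.12% of all genes called higher.

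Ms4a7, too, did not share the order of the 8 genes over the libraries. In WT, Ms4a7 measured 6.17 in the control, 8.46 at 4 weeks, 7.64 at 4 weeks with recovery, 8.23 at 12 weeks and 7.89 at 12 weeks with recovery. In Trem2-/-, Ms4a7 measured 5.83, 7.41, 7.74, 6.96 and 7.29. All 8 libraries from fed mice exceeded both controls, and the 12-week libraries overlapped with the 4-week ones (12 minus 4 weeks -0.22 ± 0.14, adjusted p = 0.281). In the comparison of genotypes over 5 conditions, none of the 22 was called, against 0.259% of all genes tested. An unadjusted p under 0.05 was reached by 6 of the 22 and by 1162 of the 10792 genes tested. Several lectins of the list, among them Cd209b, Cd209d and Cd209g, did not pass the filter on dim genes, nor did the complement receptor Vsig4 and the scavenger receptor Marco.

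The genes whose profile over the 10 libraries was closest to the mean profile of the 8 were found by the root mean square difference of centred log2 levels. Among the 8 themselves, which enter that mean, this difference ran from 0.10 at Mrc1 to 0.29 at Lyve1, with Folr2 at 0.50, rank 413 of 10792. The median over all genes tested was 0.64. The closest other genes were Dab2 (0.15), the eotaxin Ccl24 (0.19), the ferroxidase ceruloplasmin Cp (0.21), the scaffold protein Iqgap2 (0.21), Clec4n (0.26) and the sialic acid receptor Siglec1 (0.30). They were followed by Aoah (0.30), an enzyme that inactivates endotoxin, Ifi203 (0.31), Cd36 (0.31) and Tcim (0.32). Of these 10, 5 were on the list of other border macrophage markers. Dab2 measured 8.80 in the WT control, 10.07 and 9.93 in the WT 4-week libraries and 8.97 and 8.82 in the WT 12-week libraries, recovery second. In Trem2-/-, Dab2 measured 8.69 in the control, 9.97 and 9.93 at 4 weeks and 8.79 and 8.99 at 12 weeks. The 4-week libraries of Dab2 did not overlap with the others.

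**Figure D3:**
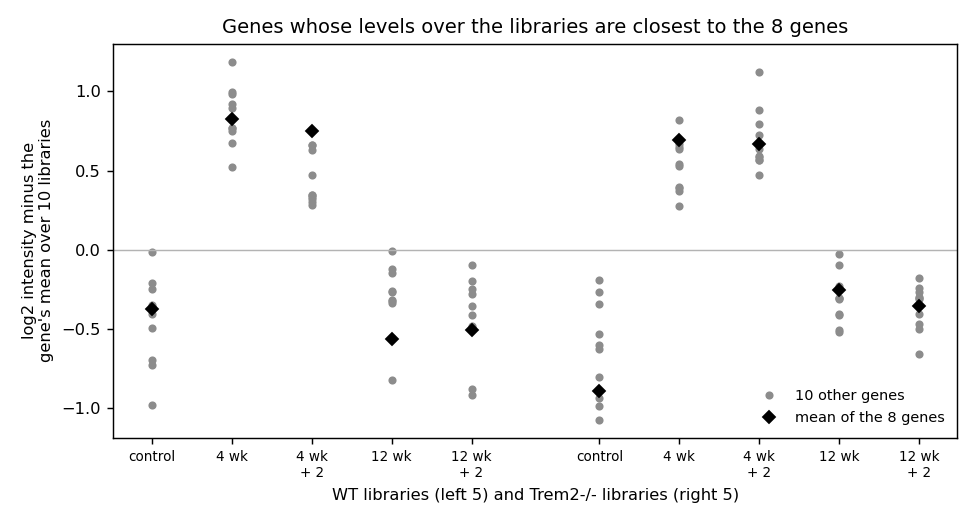
Log2 intensity of 10 genes (grey points) minus each gene's mean over the 10 libraries (y axis), in the 5 WT libraries (left) and the 5 Trem2-/- libraries (right), beside the mean of the 8 border macrophage genes (black diamonds). The genes were chosen for this likeness; all points of the libraries titled 4 weeks lie above 0 and all others below.

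Markers of other cells that a sort could carry were summed as linear intensity in each library. The sum of the 8 genes was 1240 to 1753 in the 2 controls, 3700 to 4211 in the 4 libraries titled 4 weeks and 1595 to 1960 in the 4 titled 12 weeks. The 15 homeostatic microglia genes on the array summed to 46100 to 48068 in controls, 38840 to 47532 at 4 weeks and 34143 to 39866 at 12 weeks. Monocyte genes (12 of 14 on the array, 10 tested, brightest S100a4 and Plac8) gave 639 to 656, 491 to 950 and 295 to 414. Single genes of this list went different ways, given here as WT and Trem2-/-. The monocyte chemokine receptor Ccr2 measured 6.23 and 6.12 in the controls, 5.98 and 6.21 at 4 weeks, and 5.39 and 5.70 with recovery. Plac8 measured 5.70 and 5.81 in the controls, 7.28 and 6.93 at 4 weeks, and 6.11 and 5.78 with recovery. S100a4 measured 7.44 and 7.19, then 7.38 and 7.36, then 6.14 and 6.49 in the same order. The summed monocyte genes exceeded both controls in 3 of the 4 libraries titled 4 weeks and were lowest of these in the Trem2-/- recovery library. Neutrophil genes (12 of 12 on the array, 9 tested, brightest S100a8 and S100a9) gave 6911 to 7331 in controls, 4752 to 14286 at 4 weeks and 251 to 409 at 12 weeks. They were thus high throughout the first run, controls included, and low throughout the second.

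Choroid plexus epithelium, next to which border macrophages also live, had 7 of 8 genes on the array, and 4 of them lay below the table median in all libraries. Their sum was 187 to 250 in controls, 162 to 2151 at 4 weeks and 161 to 252 at 12 weeks, with transthyretin (Ttr) the brightest. It reached 938 in the Trem2-/- 4-week library, 1096 in the Trem2-/- 4-week recovery library and 2151 in the WT 4-week recovery library. Ttr alone carried this: it measured 9.58, 9.87 and 10.95 in these libraries, against 6.15 and 5.10 in the controls. The other tested genes of the list did not share it, since Kcnj13 measured 5.73 to 6.06 at 4 weeks and 6.20 and 5.71 in the controls, and Folr1 measured 5.35 to 5.66 and 5.52 and 5.39. In the WT 4-week library Ttr was at 4.14, below the table median. The sum of the 8 border macrophage genes in that library was 4211, the highest of the study. Both values come from a single library, and whether choroid plexus tissue added to the levels of the 8 genes was not tested. Platelet genes, added after the data had been seen because Pf4 is also a platelet gene, gave 530 to 677 in controls, 393 to 549 at 4 weeks and 454 to 504 at 12 weeks. The platelet chemokine Ppbp did not pass the filter on dim genes. Endothelial genes, read because Lyve1 also marks lymphatic vessels, gave 204 to 229, 216 to 245 and 210 to 235, and Cldn5 did not pass the filter. Of the 9 on the array, 7 lay below the table median in all libraries. The list holds no gene particular to lymphatic vessels, so a lymphatic part in the Lyve1 level was not tested. Sums of T and NK cell genes were 288 to 488 and of B cell genes 219 to 306 at 4 weeks, against 364 to 388 and 239 to 250 in controls. Sums of fibroblast and mural genes were 317 to 390 at 4 weeks and 334 to 337 in controls. Dendritic cell genes gave 4052 to 4391 in controls and 3336 to 4403 at 4 weeks, with Siglech, which microglia also express, the brightest. Disease-associated microglia genes gave 20760 to 22215 in controls, 24954 to 40336 at 4 weeks and 20468 to 34759 at 12 weeks. On cuprizone this sum was 40336 in WT and 24954 in Trem2-/- at 4 weeks, and 34759 and 20468 at 12 weeks. With recovery it was 29332 and 27000 after 4 weeks, and 29636 and 25688 after 12 weeks. At 4 weeks, astrocyte genes gave 407 to 583, neuron genes 187 to 241 and oligodendrocyte genes 346 to 365, against 526 to 553, 237 to 272 and 350 to 365 in controls. The part of the neutrophil, monocyte and Ttr signal, and of the number of border macrophages in the sort, in the levels of the 8 genes was not tested.

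**Figure D4:**
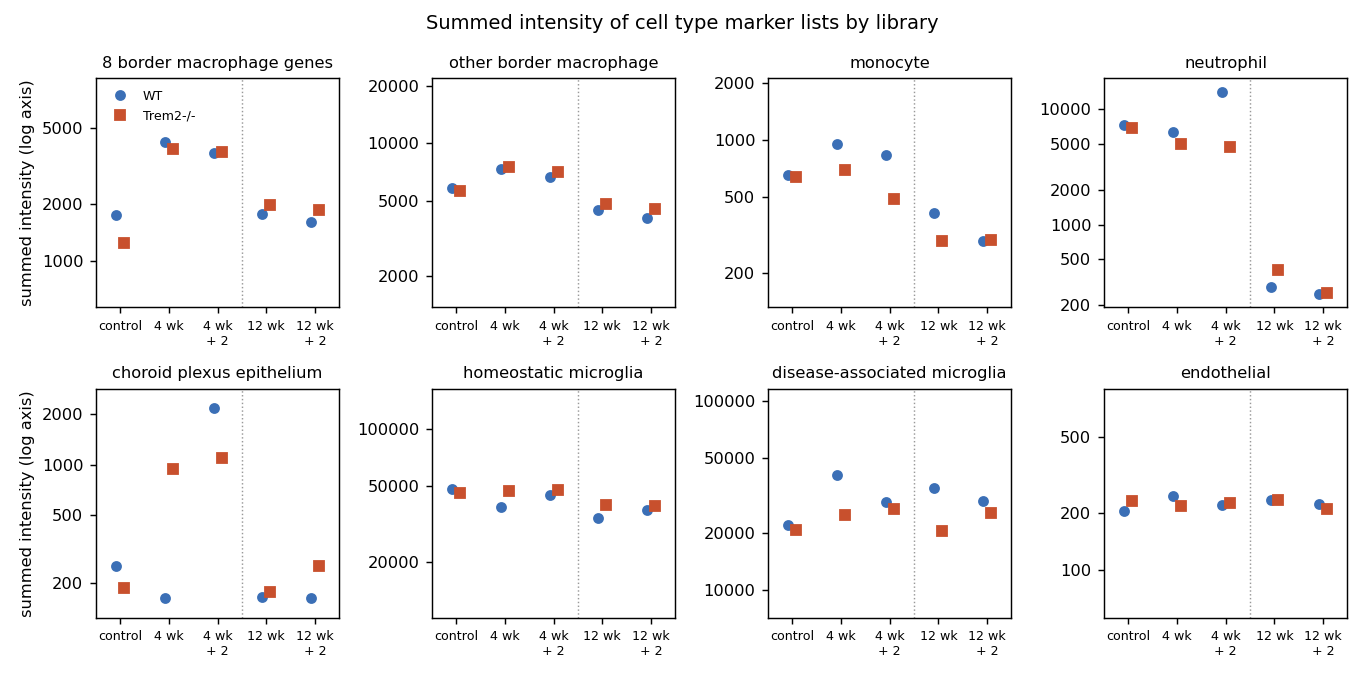
Summed linear intensity (log axis) of the 8 border macrophage genes and of 7 marker lists in each library, with WT as circles and Trem2-/- as squares; the dotted line separates the second run. The 8 genes are high in the 4 libraries titled 4 weeks, neutrophil genes are high in all 6 libraries of the first run, and the choroid plexus sum is high in 3 of the 4 libraries titled 4 weeks through the single gene Ttr.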

How the data were processed

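RNA of sorted microglia was amplified from 2 ng into biotinylated cRNA and hybridised to 10 arrays, per the labels' protocols. The deposited values are linear intensity values, 1 per probe and array, made by the authors. For background correction, probe summarization and normalization, the method is not stated in the sources used here. Log2 was taken without a pseudocount or further scaling. Of 24567 probes, 21259 named 1 gene in the platform annotation, and the brightest probe of a gene was kept.

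Groups came from the titles and labels: 6 groups of genotype and diet, with 1 library in each control and 2 in each other group. Differences were tested with lmFit and eBayes of limma 3.58.1 (R 4.3.3), adjusted by Benjamini-Hochberg over 10792 genes with a threshold of 0.05, and the scripts were tested on simulated data. Residual degrees of freedom were 4 (6 groups, and genotype over 5 conditions), 3 (12 against 4 weeks, and the duration block) and 2 (first run). The single control libraries were assumed to vary like the other groups. Comparisons that share control libraries are not independent. The number of arrays limits the precision.

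The 8 genes, the gene lists and the tests were chosen with earlier results of these data known. Named were the 8 genes; of the other border macrophage list, genes called in a comparison and the 3 with the largest cuprizone difference in each genotype; the 10 genes closest in profile; and the brightest genes of each marker list. Other genes named (Ccr2, Ppbp, Cldn5, the microglial checks and dim border genes) were chosen as defining markers. Alternatives were scaling, probe choice, a pseudocount of 16, filters, the prior, blocks and leaving out each library; the first-run fits and the platelet list were added after the data had been seen.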

Additional observations from a re-analysis of the deposited data

How the results depend on the processing

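With 2 libraries a group at most, the calls depend on single libraries more than on scaling. Alternatives were run for the 8 genes in cuprizone against control, 12 against 4 weeks and the first-run comparisons, and for Lyve1 between genotypes over 5 conditions. Of these 637 values, 571 kept their direction and side of the threshold, 26 lost a call, 36 gained one and 4 changed sign. Over all comparisons, 17 of 340 counts and medians moved, a count by over 1.5 times or a median by over 1 SD of the libraries' mean level of the 8 genes within the fit. Within that limit, medians close to 0 changed sign in the genotype and recovery comparisons and in WT cuprizone against control. With the titled duration as a block, the count of the 8 genes called went from 0 to 3 in WT and from 0 to 6 in Trem2-/- for cuprizone against control. In the first-run recovery comparison the count of 3 became 7 with median scaling, with a pseudocount of 16 or with an intensity trend, and 6 with only genes above the median on all arrays. Leaving out each library in turn gave medians of 1.21 to 1.75 for first-run cuprizone against control and of 1.11 to 1.60 for first-run recovery. The counts called changed with the library left out. In WT cuprizone against control the same gave -0.10 to 1.16 for Cbr2, -0.74 to 1.15 for F13a1, -0.75 to 1.18 for Cd209f and -0.51 to 1.57 for Cd163. The negative values are those without the WT 4-week library, which leaves the 12-week library alone. The count of 7 lower genes at 12 against 4 weeks was 5 with the conflicting library as 4 weeks. Signal near the table median limits Folr2, and outside the 4-week libraries Cd163 and Cd209f.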
